A study of Rattus norvegicus with 24 samples.

Results

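Gene expression after cessation of a nerve block was examined in the tibialis anterior, the main ankle dorsiflexor of the lower leg, of aged rats. The comparison set 3 recovery limbs, the left limbs of animals 369, 370 and 371, against the 9 right limbs of the rats that received tetrodotoxin (TTX), 12 of the 24 samples in the series. TTX closes voltage-gated sodium channels of nerve fibers and was given by an osmotic pump to the left common peroneal nerve, so that the dorsiflexors could not be activated while the untreated right limb remained in use. All animals were male Fischer 344 rats aged 23 ± 1 months. The recovery limbs had received TTX for 6 to 7 days and were then free of it for 9 days. The atrophy limbs (3 left limbs) were taken after the first TTX period, and the repeated atrophy limbs (3 left limbs) after 9 days without TTX and a second TTX period of 5 to 6 days. Sham animals had the same surgery without TTX, with 1 animal at each time point, so no sham value has a replicate. The 9 control limbs were the right limbs of 3 animals from each of these groups, hence 3 of them came from the recovery animals themselves, and the same 9 limbs served as control for the atrophy and repeated atrophy limbs below.

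When a muscle is loaded again after disuse, its fibers rebuild contractile protein while the connective tissue around them is remodelled. Fibrillar collagens and small proteoglycans are made mainly by interstitial fibroblasts, including fibro-adipogenic progenitors, and are processed outside the cell by proteases and lysyl oxidases. Embryonic and neonatal myosin heavy chains and cardiac α-actin are expressed in developing muscle, are low in adult fibers and reappear in regenerating or denervated ones.

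The RNA-seq values are counts per 1000000 (CPM), which sum to 1000000 in each limb. A gene was called higher or lower when the fold was at least 1.2 and the Benjamini-Hochberg adjusted p of limma on log2(CPM + 1) was at most 0.05. In all, 617 of 14031 tested table rows (4.40%) were higher and 467 (3.33%) were lower in recovery than in control limbs, and 3517 (25.1%) had an unadjusted p below 0.05. Of these, 424 (3.02%) were higher and 352 (2.51%) lower without a call in the same direction in atrophy or repeated atrophy limbs. Because a missed call in a disuse group does not show a difference from it, a stricter group also had to differ from both disuse groups directly, in the same direction. This left 151 rows (1.08%; 148 gene symbols, 1.12%) higher and 231 rows (1.65%; 224 symbols, 1.69%) lower only after recovery, and these are called recovery-specific below. The direct comparisons called 3.34% of rows higher and 14.5% lower in recovery than in atrophy limbs, and 6.45% of symbols higher and 21.7% lower than in repeated atrophy limbs. Of the recovery-specific rows, 80 of the higher and 56 of the lower rows differed from control by at least 2-fold. The median difference from control of the higher rows was 1.05 on the log2 scale after recovery, compared with −0.07 after atrophy and −0.09 after repeated atrophy. For the lower rows these medians were −0.82, 0.27 and 0.17. Over all tested rows the medians were 0.02, 0.22 and 0.20 on the deposited scale, so a direct comparison of recovery with a disuse group contains a shift of about that size. After a TMM rescaling (the trimmed mean of log ratios between limbs), which moves these medians to 0.01, 0.00 and −0.01, the recovery-specific rows numbered 275 higher and 210 lower.

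The own right limbs of the recovery animals touch every result that follows. With each limb set against its own animal, as a block with fixed effects in the fit, 6 rows (0.0428%) were higher and 3 (0.0214%) lower after recovery, with 2521 rows at an unadjusted p below 0.05. Set only against the 3 own right limbs, without a block, 35 were higher and 14 lower, and against the 6 right limbs of the other TTX animals 656 were higher and 735 lower. These 3 own right limbs differed from the 6 other right limbs in 97 rows, 28 higher (0.200%) and 69 lower (0.492%). The genes called in the recovery limbs both without and with the block were Actc1, Fbxl22, Myh3, Myh8 and Scd, all higher, and Mical2 and Tuba8, both lower. Every other call described here was lost with the block on the deposited scale, and that blocked value is given for the main genes. With the block after TMM rescaling 49 rows were higher and 22 lower. Of the 142 named genes 115 lost their call there, compared with 131 with the block alone. Col3a1, Col5a2, Col14a1 and Cox8a were among those that kept it. With the animal as a random effect instead, 673 were higher and 501 lower, and 138 and 225 recovery-specific. The fixed block left 0 rows called in either direction in atrophy limbs by limma (2678 at an unadjusted p below 0.05), and 3012 higher and 794 lower in repeated atrophy limbs. With the fixed block the recovery-specific rows numbered 0 higher and 1 lower, Tuba8, and the left-right difference was higher in recovery than in atrophy animals in 0 rows (1117 at an unadjusted limma p below 0.05 in either direction). Calls in the disuse groups, direct comparisons with them and the recovery-specific group are therefore given below without the block. The count of 1084 was 207 without the left limb of animal 369, 321 without that of 371, 487 without that of 370, and 686 without the right limb of animal 365. Of the 142 named genes, 102, 70 and 82 lost their call without the left limb of animal 369, 370 and 371. Each limb is 1 sample of its animal, and p-values measure the spread between these limbs.

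**Figure D1:**
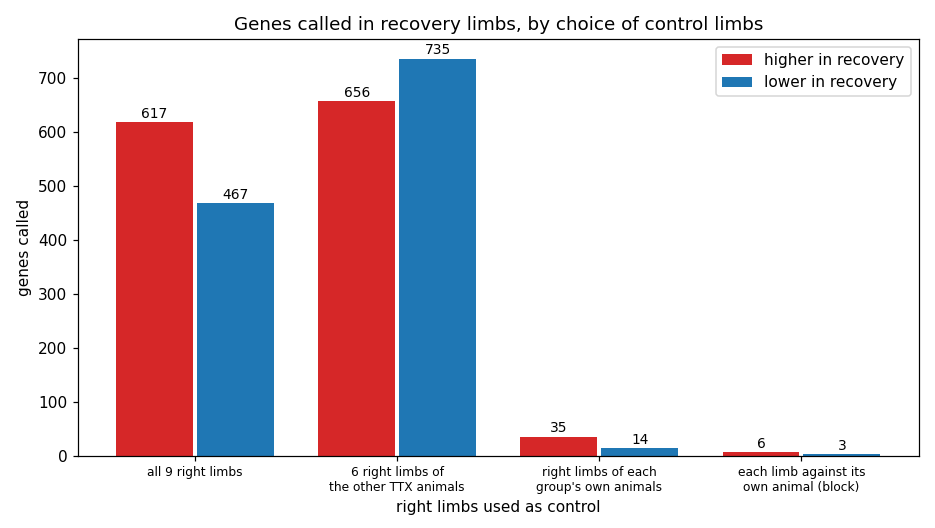
Number of genes called higher (red bars) or lower (blue bars) in the 3 recovery limbs, on the y axis, for 4 choices of control on the x axis. The counts are 617 and 467 with all 9 right limbs, 656 and 735 with the 6 right limbs of the other animals, 35 and 14 with the right limbs of each group's own animals, and 6 and 3 with each animal as a block.

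The bases before the start site are shown for 3 genes on which the results below turn: Myh3, the embryonic myosin heavy chain, and Col1a2, a chain of type I collagen, were both higher after recovery, and Chac1, a glutathione-degrading enzyme, had the largest fall. Each run holds the 250 bases upstream of the RefSeq start on the GRCr8 build, read 5′ to 3′ on the gene's strand, with matches on either strand in capitals to TATAAA (the TATA box), to CCAAT (the CCAAT box), to the CArG box, and to TGATGNAA (the amino acid response motif bound by ATF4). The runs lie at chr10:52268935-52269184 for Myh3, chr4:33518307-33518556 for Col1a2 and chr3:126795881-126796130 for Chac1, all on the plus strand.
Myh3: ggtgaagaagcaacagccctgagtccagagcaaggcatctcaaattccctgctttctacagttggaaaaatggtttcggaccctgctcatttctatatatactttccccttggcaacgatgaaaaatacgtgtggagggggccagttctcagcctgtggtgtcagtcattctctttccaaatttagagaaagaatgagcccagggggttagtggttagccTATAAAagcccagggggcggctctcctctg
Col1a2: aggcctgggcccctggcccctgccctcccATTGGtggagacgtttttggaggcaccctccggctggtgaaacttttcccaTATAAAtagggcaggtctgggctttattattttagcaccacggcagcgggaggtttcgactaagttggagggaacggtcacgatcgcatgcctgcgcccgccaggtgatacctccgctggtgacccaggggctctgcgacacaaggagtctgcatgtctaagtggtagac
Chac1: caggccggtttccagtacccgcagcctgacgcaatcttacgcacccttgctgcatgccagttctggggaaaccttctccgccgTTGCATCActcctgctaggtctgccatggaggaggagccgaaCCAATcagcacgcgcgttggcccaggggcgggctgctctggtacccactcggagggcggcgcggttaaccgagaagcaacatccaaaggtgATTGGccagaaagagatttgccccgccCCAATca
Myh3 held TATAAA 30 bases before the start, Col1a2 held TATAAA at 170 and CCAAT at 221 bases, and Chac1 held TGATGNAA at 167 bases and CCAAT at 3 places. A promoter was matched by symbol for 106 of the 148 recovery-specific higher symbols and 192 of the 224 lower symbols. TATAAA was found in 10.4% of the higher and 8.33% of the lower promoters, compared with 7.24% of the 10410 tested symbols with a promoter and 13.1% of all 27457 promoters. CCAAT was found in 35.8%, 41.7%, 34.9% and 34.3% of the same 4 sets, and TGATGNAA in 2.83%, 1.04%, 2.01% and 3.27%. The CArG box, read by serum response factor, was found in 3 of the 106 higher promoters (2.83%) and in 0 of the 192 lower ones, compared with 1.13% of the tested and 1.5005% of all promoters. The E-box, CANNTG, not marked above, was found in 59.4% of the higher, 55.2% of the lower, 57.8% of the tested and 65.2% of all promoters. These are matches of letters within a short window and no test was made on them.

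Most fibrillar collagen and collagen-processing genes were higher after recovery. Lists hold 1 row per gene symbol, of which 4.44% were higher and 3.42% lower in all. Of the 31 tested fibrillar collagen and collagen-processing genes, 17 were higher and 1 was lower, with a median difference of 0.98 on the log2 scale beside 0.02 over all rows. In the atrophy limbs 2 of the same genes were higher and 1 lower (median 0.17), where 20.3% of all rows were higher and 2.33% lower, and in the repeated atrophy limbs 4 and 1 (median 0.23), where these shares were 28.1% and 6.24%. Of the 31, 9 higher and 1 lower gene were recovery-specific. Col3a1, the chain of type III collagen (chr9:47374611-47410548 on rn7, plus strand), stood at 714, 433 and 939 CPM in the recovery limbs of animals 369, 370 and 371. Control limbs ranged from 26.3 to 167 CPM with a median of 49.0, and the 3 highest, at 167, 145 and 92.6 CPM, were the right limbs of the recovery animals. Hence the recovery limbs lay above all controls, and their own right limbs lay above all 6 others, which reached 62.3 CPM. The rise in Col3a1 was 10.96-fold (log2 3.45 ± 0.55 SE, limma adjusted p = 0.0023), compared with log2 changes of 0.28 after atrophy and 0.41 after repeated atrophy. Within animals the difference was 2.33 (limma adjusted p = 0.080), and the call was also lost against the own right limbs without a block (limma adjusted p = 0.064). It was kept with the block after TMM rescaling.

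The chains of type I collagen also lay higher. Col1a1 (chr10:79883622-79900626 on rn7) was at 324, 205 and 375 CPM in recovery limbs, at 77.9, 119 and 69.4 CPM in their own right limbs and at 12.44 to 37.4 CPM in the other 6. Its log2 change was 3.07 ± 0.61 (SE; limma adjusted p = 0.0073), which within animals was 1.75 (limma adjusted p = 0.11). Col1a2, whose upstream bases are printed above, was at 348, 214 and 434 CPM in recovery limbs, 98.6, 132 and 80.9 CPM in the own right limbs, and 16.3 to 65.8 CPM in the other 6 (log2 2.75 ± 0.57 SE, limma adjusted p = 0.0092). Neither collagen gene overlapped between recovery and control limbs, which held for 781 of the 14031 tested rows in this direction. Type V collagen, which sets fibril diameter, rose through Col5a2 (log2 2.04) and Col5a1 (1.499), and the fibril-associated Col14a1 rose from 2.16–13.3 CPM in control to 44.5, 30.8 and 62.0 CPM in recovery limbs.

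Proteoglycans and processing enzymes followed. Lumican (Lum), which spaces collagen fibrils, was at 102, 67.4 and 123 CPM after recovery and at 5.91 to 31.9 CPM in control limbs (log2 2.58 ± 0.43 SE, limma adjusted p = 0.0028, within animals 2.05 with limma adjusted p = 0.11). Biglycan (Bgn, 1.95) and decorin (Dcn, 1.13) were higher too, as were the lysyl oxidases Loxl1 (1.71), Loxl2 (1.18) and Lox (0.60), which crosslink collagen, and Pcolce (1.28) and Adamts2 (1.11), which act on procollagen. Among intracellular enzymes and chaperones of collagen, Fkbp10 was higher (0.98). P4ha2, a prolyl hydroxylase subunit, was lower (log2 −0.73), while P4ha1 (−0.33), Plod1 (−0.24), Plod2 (0.77), P3h1 (−0.17) and the collagen chaperone Serpinh1 (0.63) did not pass the test.

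Of the 37 matrix glycoprotein and remodelling genes, 11 were higher and 0 lower (median 0.52), with 8 higher after atrophy and 6 higher and 2 lower after repeated atrophy. Fibrillin 1 (Fbn1), the core of elastic microfibrils, was at 91.0, 57.4 and 89.9 CPM in recovery limbs against 7.04 to 31.8 CPM in control limbs (log2 2.36 ± 0.38 SE, limma adjusted p = 0.0026). Its log2 changes in the disuse groups were 0.01 and 0.10. Periostin (Postn) had a larger change of 3.25 but was not recovery-specific, as the atrophy limbs also differed from control (1.80, limma adjusted p = 0.026) with values of 76.0, 4.65 and 39.0 CPM. Fibronectin (Fn1, 1.49, with recovery limbs overlapping control) and versican (Vcan, 1.33) were recovery-specific, and Timp1, an inhibitor of matrix metalloproteases, was higher by 1.56. Mmp9 (−0.09), Tgfb1 (0.55) and Tnc (0.91) did not pass the test. Of 13 basement membrane and collagen VI genes 1 was higher, Col6a2 (1.01). The median of the list was 0.47, and 0.20 within animals. An unadjusted limma p below 0.05 was found for 6 of the 13, beside 25.1% of all rows. No test compared the lists with each other.

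Sfrp4, a secreted Wnt-binding protein, was low in control. Recovery limbs held 19.9, 12.44 and 57.0 CPM, own right limbs 3.66, 2.06 and 2.37 CPM, and the other 6 right limbs 0.230 to 1.99 CPM. The change was 3.39 ± 0.47 (SE; limma adjusted p = 0.0011) and within animals 2.80 (limma adjusted p = 0.075). Other secreted matrix-associated genes of the recovery-specific group were Aspn, which binds collagen (log2 2.36), and Ccdc80 (2.07). Hsd11b1, which regenerates active glucocorticoid from its inactive form, rose from 4.72–10.3 CPM in control to 30.0, 23.4 and 47.9 CPM in recovery limbs (log2 2.05, limma adjusted p = 0.0011).

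Markers of fibro-adipogenic progenitors rose with the matrix, with 9 of 13 higher and 0 lower (median 1.38) and 0 of 13 called in either disuse group. Several of these markers are themselves matrix genes. The median of the list was 0.53 between right limbs and 1.04 within animals, where 0 were called. Their summed level was 1532 to 2684 CPM in recovery limbs and 518 to 1180 CPM in control limbs, and no marker was at 0 in all limbs of a group. The receptor that defines these cells, Pdgfra, changed by 0.71 and Cd34 by 0.61, both without passing the test, while Dpp4 (1.18), Smoc2 (1.42), Mfap5 (1.46) and Dpt (1.38) passed it. In bulk tissue, more cells of a type and more RNA per cell cannot be told apart. Of 9 tenocyte markers 2 were higher, Thbs4 and Col11a1, whereas the tendon-defining Scx (−0.48) and Tnmd (0.13) were not called. The summed level of the tenocyte list was 78.3 to 151 CPM in recovery limbs and 28.7 to 161 CPM in control limbs, so the groups overlapped. Its median was −0.10 against all 9 control limbs, 0.98 between right limbs, with 1 gene higher, and −0.61 within animals.

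**Figure D2:**
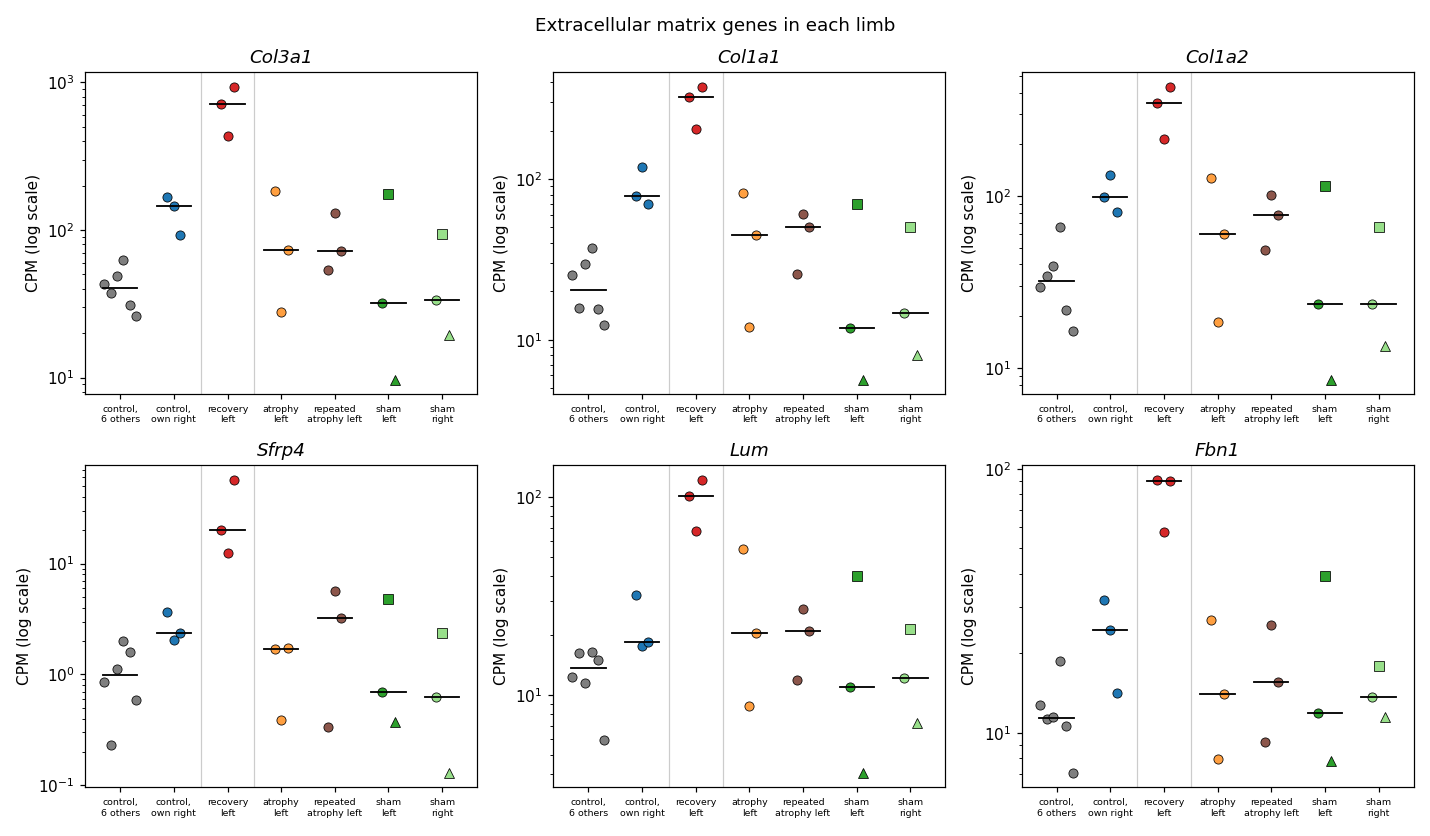
CPM on a log axis for 6 matrix genes, 1 point per limb, with control limbs split into the 6 right limbs of other TTX animals and the 3 own right limbs of recovery animals, and bars at the medians. Squares are the sham animal of the recovery time point, circles among the shams the atrophy time point and triangles the repeated atrophy time point. Recovery limbs lie above all 9 control limbs in all 6 panels, which was also a condition for naming the genes with the largest changes.

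The sham animal of the recovery time point, animal 377, carried some of the same values without TTX. Its left limb held 176 CPM of Col3a1 and its right limb 93.9 CPM, compared with 31.8 and 33.3 CPM in the sham animal of the atrophy time point and 9.70 and 19.5 CPM in that of the repeated atrophy time point. For Sfrp4 the left limb of animal 377 was at 4.82 CPM, above all 9 control limbs but below all 3 recovery limbs. The left-right median of the matrix glycoprotein list was 0.52 in animal 377, as large as after recovery. It was −0.11 in the sham animal of the atrophy and −0.13 in that of the repeated atrophy time point. For fibrillar collagens these medians were 0.51, −0.18 and −0.14, and for fibro-adipogenic progenitor markers 0.77, −0.08 and −0.43. With 1 sham animal at each time point, the part of surgery, time and animal in the matrix values was not tested.

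Contractile genes were called mainly among the developmental and cardiac forms. Of 9 developmental and cardiac sarcomere genes 4 were higher and 0 lower (median 1.77), with 1 of the 9 recovery-specific. After atrophy 3 were higher and 1 lower (median 0.74), and after repeated atrophy 5 and 1 (median 0.96), where 20.3% and 28.1% of all rows were higher. The left-right median was 0.82 in sham animal 377, −0.48 in 354 and −0.13 in 379. The list summed to 6891 to 8538 CPM in recovery limbs, within the control range of 6364 to 10134 CPM. Of 16 adult fast genes 0 were higher and 1 was lower (median 0.05), with 4 of the 16 at an unadjusted limma p below 0.05, beside 25.1% of all rows. Within animals the median of the adult fast genes was −0.17. The lower gene was Mylk2, a kinase of the regulatory light chain (log2 −1.39), whose call was lost in 21 of 34 alternative settings, among them the fits without any 1 recovery limb (limma adjusted p up to 0.185). Actc1, cardiac α-actin (chr3:100811987-100817524 on rn7, minus strand), reached 545, 586 and 375 CPM in recovery limbs. Control limbs ranged from 12.0 to 57.2 CPM, the own right limbs of the recovery animals being at 47.5, 46.9 and 57.2 CPM. The rise was 14.7-fold (log2 3.88 ± 0.59 SE, limma adjusted p = 0.0015) and also passed within animals (log2 3.27, limma adjusted p = 0.017), but not against the own right limbs without a block (limma adjusted p = 0.064). It had the largest rise among the 151 recovery-specific rows. The atrophy limbs held 187, 13.4 and 64.4 CPM and the repeated atrophy limbs 24.7, 92.0 and 117 CPM, so that all recovery limbs lay above all disuse limbs, and recovery exceeded atrophy by 3.14 (limma adjusted p = 0.011) and repeated atrophy by 2.91 (limma adjusted p = 0.0074). Neither excess of Actc1 passed with the block (2.18, limma adjusted p = 0.49, and 2.03, limma adjusted p = 0.12). The adult paralog Acta1, skeletal α-actin, was at 39576, 40230 and 34033 CPM and was not called (log2 0.07, limma adjusted p = 0.95; within animals −0.37). How reads shared by these near-identical coding sequences were assigned is not given in the sources used here, so the Actc1 level is uncertain to that extent.

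Myh8, the neonatal myosin heavy chain, was at 258, 197 and 240 CPM in recovery limbs and at 10.7 to 23.9 CPM in control limbs. Its change of 3.79 ± 0.42 (SE; limma adjusted p = 0.00021) was as large within animals (3.92, limma adjusted p = 0.0085). It was higher in both disuse groups also, by 1.34 and 2.39, and recovery exceeded each of them without the block but not with it (limma adjusted p = 0.39 and 0.17). Myh3 was at 97.4, 153 and 245 CPM in recovery limbs against 5.36 to 50.3 CPM in control limbs (log2 2.80 ± 0.76 SE, limma adjusted p = 0.033; within animals 2.78, limma adjusted p = 0.025). The Myh3 call was lost against the 6 other right limbs (limma adjusted p = 0.055), against the own right limbs without a block (0.21) and without any 1 recovery limb (up to 0.13). Repeated atrophy limbs held 100.3, 192 and 300 CPM, and their difference from recovery was not detectable with 3 limbs a group (log2 −0.22, limma adjusted p = 0.89). The embryonic light chain Myl4 rose from 11.3–22.1 CPM to 49.9, 38.7 and 70.7 CPM (log2 1.77 ± 0.20 SE, limma adjusted p = 0.00021) and exceeded both disuse groups, although repeated atrophy limbs were themselves higher than control (0.79). The myosin genes are close paralogs in a cluster on chromosome 10, and the assignment of shared reads was not stated for them either.

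The adult isoforms Myh2, the fast oxidative heavy chain, and Myl1, the fast essential light chain, lay above all 9 control limbs in all 3 recovery limbs without passing the test. Myh2 was at 5789, 8124 and 4962 CPM against a control range of 1963 to 4544 CPM (log2 1.10, limma adjusted p = 0.12), and Myl1 at 11614, 10570 and 10385 CPM against 4318 to 7898 CPM (log2 0.85, limma adjusted p = 0.070). Casq2, the cardiac and slow calsequestrin of the sarcoplasmic reticulum, was at 103, 133 and 99.6 CPM after recovery and at 27.7 to 51.5 CPM in control limbs (log2 1.57, limma adjusted p = 0.018), a call lost without any 1 recovery limb (limma adjusted p up to 0.081). It was the single gene called among the 13 slow sarcomere genes tested. Of 15 skeletal muscle fiber markers 0 were higher and 1 was lower, Cacna1s, the voltage sensor of the transverse tubule (log2 −0.80). Their summed level was 263504 to 282228 CPM in recovery limbs, within the control range of 240854 to 318010 CPM, and 122992 to 255431 CPM in atrophy limbs.

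**Figure D3:**
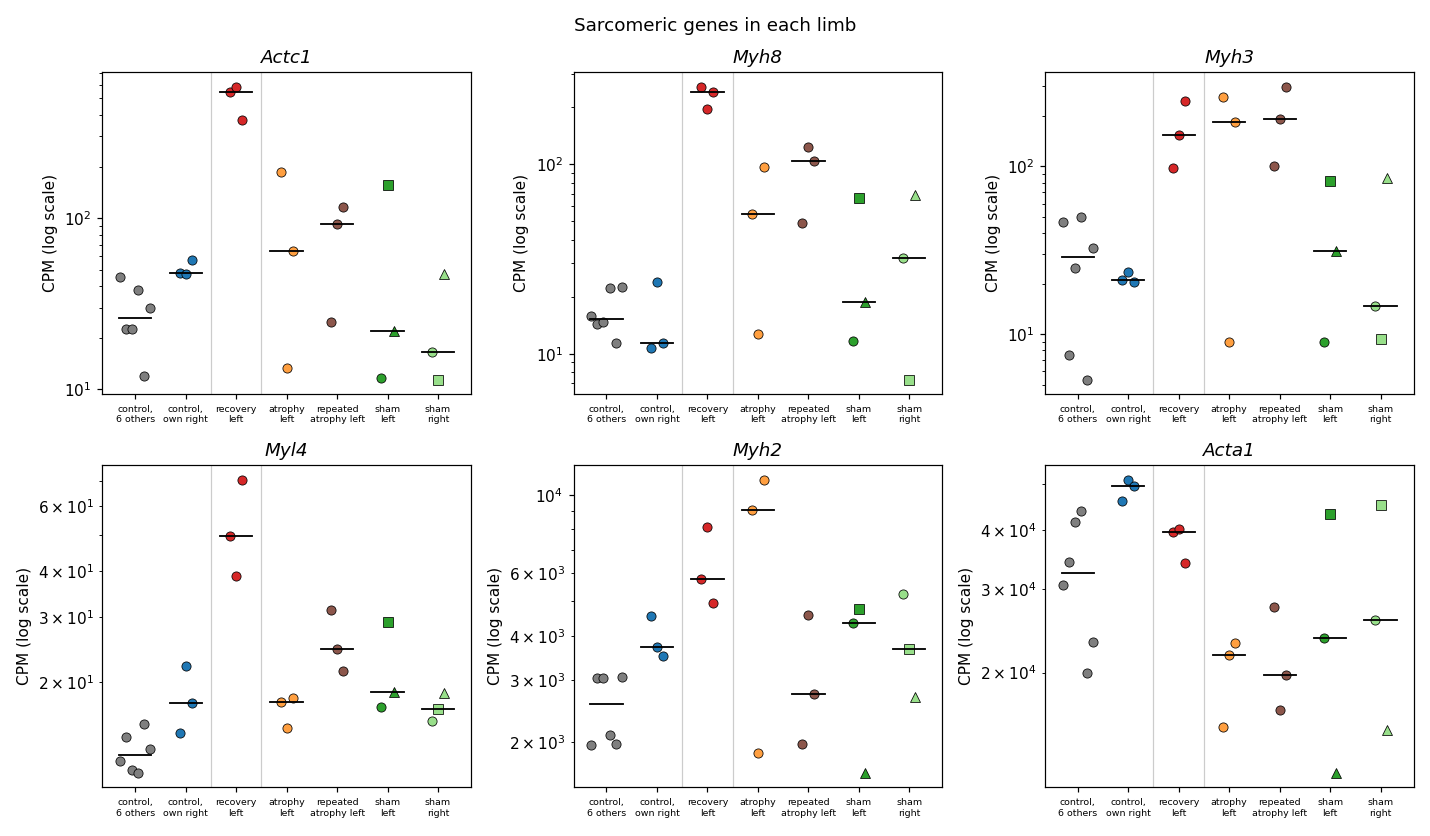
CPM on a log axis for 6 sarcomeric genes, 1 point per limb, grouped as in the plot of matrix genes with bars at the medians. Actc1, Myh8, Myh3 and Myl4 recovery limbs lie above all 9 control limbs, while Acta1 recovery limbs, at 34033 to 40230 CPM, lie within the control range.

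Other muscle genes also rose. Fbxl22, an F-box protein of the sarcomere, was at 4.66, 4.67 and 4.04 CPM in recovery limbs and at 0.138 to 1.36 CPM in control limbs, a low level but with a small spread (log2 1.81 ± 0.20 SE, limma adjusted p = 0.00021; within animals 1.53, limma adjusted p = 0.017). Hspb6, a small heat shock protein of muscle, was at 2645, 3596 and 2191 CPM against 865 to 1211 CPM (log2 1.36, limma adjusted p = 0.0014), and was lower than control in repeated atrophy limbs (−0.58, limma adjusted p = 0.033). Atp1b4, a muscle protein of the β-subunit family of the sodium pump, moved in opposite directions: 53.0, 56.8 and 46.3 CPM after recovery, 3.64 to 18.996 CPM in control, 3.60, 6.49 and 0.521 CPM after atrophy and 1.00, 3.19 and 1.30 CPM after repeated atrophy. In all, 19 rows were higher after recovery and lower in at least 1 disuse group, 5 of them lower in both, and 40 rows were lower after recovery and higher in at least 1 disuse group, 6 of them in both.

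Genes of creatine and heme synthesis were named after their values were seen. Gatm and Gamt, which catalyze the successive steps of creatine synthesis, both rose and were recovery-specific. Gatm was at 24.04, 18.01 and 21.3 CPM against 3.67 to 8.26 CPM in control limbs, and Gamt at 32.6, 33.2 and 35.3 CPM against 3.57 to 16.4 CPM. Each changed by 1.76 on the log2 scale (limma adjusted p = 0.0029 and 0.0058). Gamt was lower than control after repeated atrophy (−1.30, limma adjusted p = 0.0059). Alas1, the rate-limiting enzyme of heme synthesis, was at 281, 290 and 198 CPM in recovery limbs, but its level in the own right limbs, 178, 181 and 173 CPM, was also above the 48.4 to 116 CPM of the other 6 (log2 1.14 between right limbs, limma adjusted p = 0.043). Within animals the Alas1 difference was 0.51 (limma adjusted p = 0.35).

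Mitochondrial lists held 13 genes that were higher and 2 that were lower. Of 42 genes of complexes II to V 5 were higher and 0 lower (median 0.46), of 37 genes matched to complex I by name 3 and 1 (median 0.40), and of 27 genes of the TCA cycle and pyruvate entry 5 and 1 (median 0.39), beside 4.44% higher and 3.42% lower over all symbols. At an unadjusted limma p below 0.05 were 21, 17 and 14 genes of these lists, beside 25.1% of all rows. The medians of the same lists after atrophy were −0.15, −0.20 and −0.30. The right limbs of the recovery animals lay above the other right limbs by medians of 0.44, 0.46 and 0.53 for these lists, and within animals the medians were 0.26, 0.05 and 0.12. Members called higher were Ndufs5, Ndufs4 and Ndufa2 of complex I (log2 0.89, 0.74 and 0.61), Atp5me and Atp5mc3 of the ATP synthase (log2 1.31 and 0.81), Cox8a and Cox6a1 of cytochrome oxidase (0.84 and 0.81), Sdhb of succinate dehydrogenase (0.64), the mitochondrial pyruvate carrier Mpc2 (0.89), and the pyruvate dehydrogenase components Dlat (0.91), Pdhx (0.78) and Dld (0.73). After TMM rescaling Ndufs5, Ndufs4, Ndufa2, Atp5me, Atp5mc3, Sdhb, Mpc2 and Dld were no longer called (limma adjusted p = 0.0503 to 0.098). Pdk3, a kinase that inactivates pyruvate dehydrogenase, was higher (0.91) and the related Pdk2 lower (−0.98), as was Ndufa4l2 (−0.93). Ndufa4l2 was the lower member of the complex I list, which it entered by its name and not as a known subunit. Of 33 glycolytic and glycogen genes 0 were called in either direction by limma and 3 had an unadjusted p below 0.05, with a median of 0.19, which was −0.25 within animals, where 17 were lower in all 3 animals (14.9% of all rows). In the disuse groups 17 were lower after atrophy and 23 after repeated atrophy.

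Scd, the stearoyl-CoA desaturase of oleate synthesis, had the largest rise of the 617 rows but was not recovery-specific. It reached 172, 217 and 1048 CPM in recovery limbs against 3.17 to 43.9 CPM in control limbs (log2 4.73 ± 0.85 SE, limma adjusted p = 0.0043; within animals 4.82, limma adjusted p = 0.026), and was also higher in atrophy (2.40) and repeated atrophy limbs (4.11). Its paralog Scd2 was higher by 1.80. Of the other 20 genes of fatty acid synthesis 0 were higher and 1 lower, Mlxipl (−0.86), a glucose-sensing transcription factor. Of 25 genes of cholesterol synthesis and uptake 0 were higher and 1 was lower, Fdft1 (−0.51), compared with 11 higher after atrophy and 13 after repeated atrophy.

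Lists of leukocyte markers and proliferation genes held calls that were higher. Of 16 macrophage markers 5 were higher and 0 lower (median 0.82): Adgre1 (F4/80, log2 1.62), Aif1 (1.47), Cd68 (1.41), Itgam (1.40) and Mrc1 (1.29). Within the recovery animals the median of the list was 0.91. Without TTX, the left-right median was 0.93 in sham animal 377 of the recovery time point, 0.11 in animal 354 and −0.05 in animal 379. Adgre1 was at 14.02, 8.43 and 18.04 CPM in recovery limbs and 1.52 to 5.97 CPM in control limbs. The complement genes C1qa, C1qb and C1qc (0.61 to 0.89) and Cd163 (0.35) did not pass the test. The summed level of the macrophage list was 272 to 784 CPM in recovery limbs and 130 to 411 CPM in control limbs, so these overlapped, and it was 485 to 998 CPM in atrophy and 1029 to 1263 CPM in repeated atrophy limbs. Of 10 T and B lymphocyte markers 4 were higher, Cd2, Cd3g, Cd3e and Cd3d (log2 0.47 to 0.87). All 4 calls were lost at pseudocounts of 0.1 and 10 and against the 6 other right limbs (limma adjusted p = 0.062 to 0.068), and that of Cd3e in 23 of 32 alternative settings. All were at most 3.21 CPM in recovery limbs and overlapped the control limbs, and Cd3e in the recovery limb of animal 370 was at 0.0819 CPM. The list summed to 13.2 to 36.4 CPM in recovery and 5.15 to 21.5 CPM in control limbs.

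Of 34 proliferation genes 6 were higher and 0 lower (median 0.44). After atrophy 6 were higher and 1 lower (median 0.46), and after repeated atrophy 9 and 1 (median 0.05), where 20.3% and 28.1% of all rows were higher. The list summed to 196 to 221 CPM in recovery limbs, within the control range of 146 to 227 CPM. It summed to 208 to 479 CPM in sham left and 216 to 428 CPM in sham right limbs. Cyclin D1 (Ccnd1), which drives entry into the cell cycle, was recovery-specific at 19.3, 24.5 and 18.4 CPM, and its own right limbs, at 14.1, 13.3 and 9.23 CPM, lay between these and the other 6 at 2.47 to 6.71 CPM. Its change was 1.53 against all 9 control limbs (limma adjusted p = 0.031), 1.2 between right limbs (limma adjusted p = 0.11) and 0.73 within animals (limma adjusted p = 0.26). Mki67, a marker of cycling cells, was at 3.19, 5.03 and 5.79 CPM after recovery against at most 2.54 CPM in control, and its call was lost in 17 of 33 alternative settings, among them pseudocounts of 0.1 and 10 and the fits without any 1 recovery limb (limma adjusted p up to 0.16). Igf2, a growth factor of developing and regenerating muscle, was at 102, 105 and 126 CPM compared with 23.7 to 40.8 CPM (log2 1.79 ± 0.26 SE, limma adjusted p = 0.0011; within animals 1.71, limma adjusted p = 0.075), and Igf1 was higher by 0.79 and Igfbp7 by 0.55. These were the 3 genes called among 20 of IGF and insulin signalling (median 0.18). Igf2 was also higher after repeated atrophy (1.03). Of 12 satellite cell markers 1 was higher, Vcam1 (1.01), and 1 lower, Cdh15 (−1.09), with a median of 0.04, and Pax7, the defining factor, was not called (0.09).

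**Figure D4:**
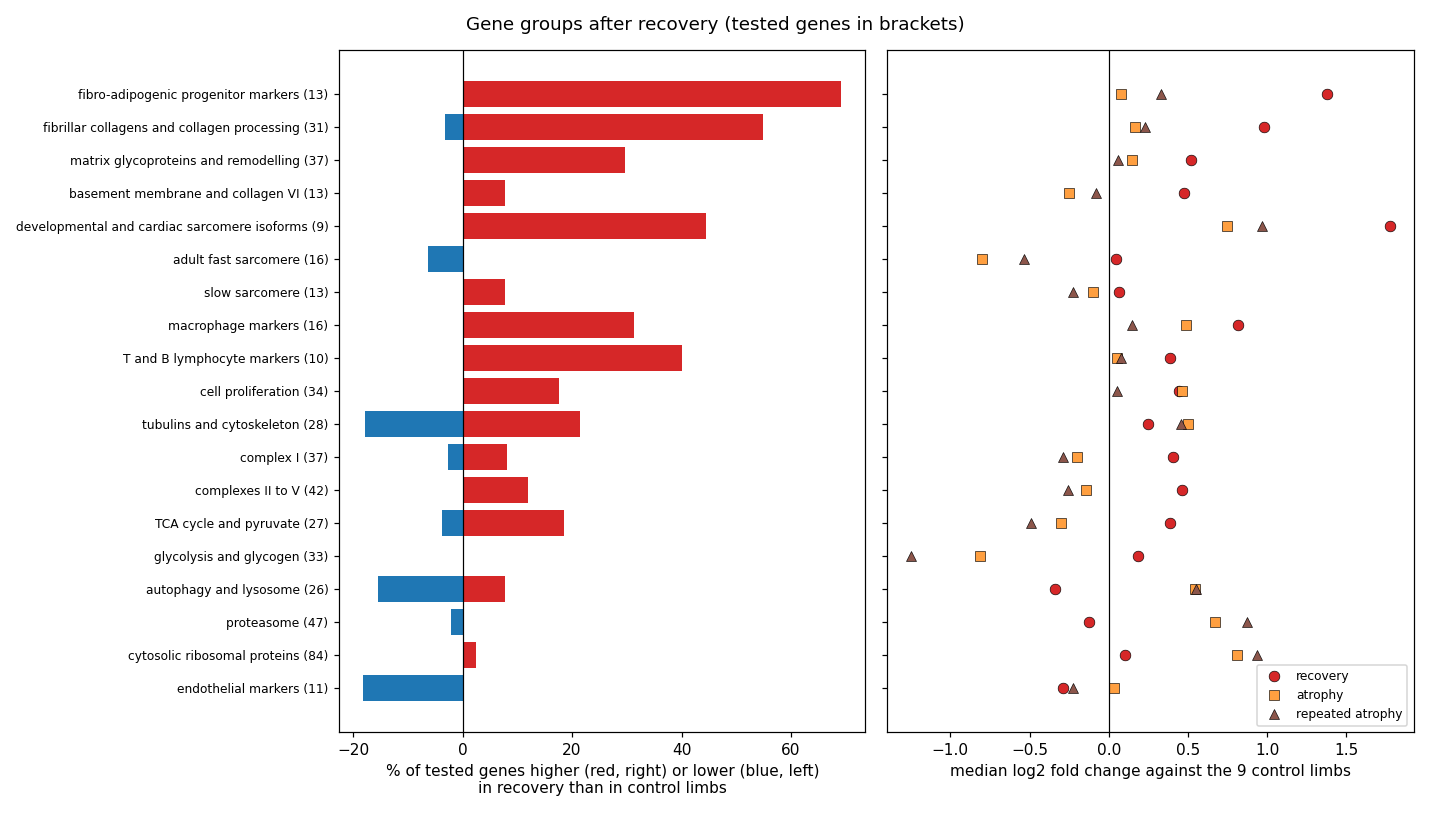
Left, the percentage of tested genes in each of 19 groups that were higher (red, to the right) or lower (blue, to the left) in recovery than in control limbs, and right, the median log2 fold change of the same genes against the 9 control limbs after recovery (circles), atrophy (squares) and repeated atrophy (triangles). Medians after recovery are 1.77 for developmental and cardiac sarcomere isoforms, 1.38 for fibro-adipogenic progenitor markers and 0.98 for fibrillar collagens, while ribosomal proteins, at 0.81 after atrophy, are at 0.10 after recovery.

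Chac1 had the largest fall, with 2.18, 0.327 and 2.92 CPM in recovery limbs compared with 10.9, 3.87 and 5.27 CPM in the own right limbs and 25.9 to 92.8 CPM in the other 6 (log2 −3.22 ± 0.75 SE, limma adjusted p = 0.016). The right limbs of recovery animals were themselves lower than the other 6 by 2.61 on the log2 scale (limma adjusted p = 0.035), and within animals the difference was −1.49 (limma adjusted p = 0.15). In sham animals it was at 4.03 and 8.08 CPM in animal 377 and at 24.5 to 193 CPM in the other two. Of 31 genes of the ATF4 response, to which Chac1 belongs, 1 was higher, Mthfd2 (0.92), and 2 were lower, Chac1 and the amino acid transporter heavy chain Slc3a2 (−0.74), with a median of 0.12. Asns (1.29) and Atf4 (−0.86) did not pass the test.

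Mical2, an enzyme that oxidizes and depolymerizes actin, was lower than in every right limb. It was at 16.8, 11.7 and 17.6 CPM in recovery limbs, at 67.3, 52.8 and 49.5 CPM in the own right limbs and at 38.1 to 90.2 CPM in the other 6, with no overlap, as in 679 of the 14031 tested rows in this direction. The change was −1.93 ± 0.28 (SE; limma adjusted p = 0.0011) and −1.82 within animals (limma adjusted p = 0.017). Ddx23, a helicase of the spliceosome, was at 65.5, 64.8 and 87.3 CPM against 150 to 367 CPM in control (log2 −1.75 ± 0.25 SE, limma adjusted p = 0.0011; within animals −1.22, limma adjusted p = 0.075). Asb2, a muscle ubiquitin ligase subunit that targets filamins, fell from 332–1114 CPM to 171, 176 and 203 CPM (log2 −1.53 ± 0.28 SE, limma adjusted p = 0.0047; within animals −1.04, limma adjusted p = 0.14). Txnrd2, the mitochondrial thioredoxin reductase, was at 13.3, 8.76 and 12.0 CPM, compared with 30.5 to 31.7 CPM in the own right limbs (log2 −1.22, limma adjusted p = 0.0024; within animals −1.39, limma adjusted p = 0.056).

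The cytoskeletal list held calls in both directions, 6 higher and 5 lower of 28. Several tubulins, the subunits of microtubules, fell. Tuba8 was at 88.2, 94.4 and 113 CPM in recovery limbs, 308, 329 and 421 CPM in the own right limbs and 140 to 275 CPM in the other 6 (log2 −1.27 ± 0.30 SE, limma adjusted p = 0.018; within animals −1.83, limma adjusted p = 0.017). Tuba4a was at 141, 126 and 344 CPM, compared with 187 to 1107 CPM in control limbs, so its groups overlapped (log2 −1.63, limma adjusted p = 0.028). It was higher after atrophy (1.35, limma adjusted p = 0.032), at 2067, 771 and 1937 CPM. Tubb4b (−1.50) and the centrosomal Tubg1 (−0.93) were lower, and all 4 of these tubulin genes were recovery-specific. Tuba1a (0.83), Tubb2b (0.83) and Tubb5 (0.10) did not pass the test. Synm, an intermediate filament protein, was lower (−0.64). Members that rose were the actin-binding Tmsb10 (1.46), Tmsb4x (0.93) and Cfl1 (0.69), cytoplasmic actin Actg1 (0.72, but limma adjusted p = 0.074 after TMM rescaling), and the intermediate filaments nestin (Nes, 1.22) and vimentin (Vim, 0.76), which are expressed in developing muscle.

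Lists of protein breakdown and glucocorticoid response held calls in both directions, where 4.44% of all symbols were higher and 3.42% lower. Of 26 autophagy and lysosome genes 4 were lower, Ulk1 (−0.91), Map1lc3a (−0.85), Tfe3 (−0.61) and Lamp1 (−0.54), all recovery-specific, and 2 were higher, the cathepsins Ctsk (1.49) and Ctss (0.99), with a median of −0.34. Map1lc3a, an autophagosome membrane protein, was at 115, 112 and 141 CPM in recovery limbs and at 148, 151 and 138 CPM in the own right limbs, against 227 to 315 CPM in the other 6 (log2 −0.90 between right limbs, limma adjusted p = 0.0057; within animals −0.25, limma adjusted p = 0.37). Of 22 atrogene and FoxO genes 2 were lower, Asb2 and Foxo4 (−1.11), and 1 was higher, Fbxl22 (median −0.42). The ubiquitin ligases Fbxo32 (−1.27) and Trim63 (−0.95) did not pass the test. Of 15 glucocorticoid-responsive genes 2 were lower, Zbtb16 (−1.37) and Glul (−1.73), and Hsd11b1 was higher (median −0.43). Between right limbs the medians of these lists were −0.30, −0.61 and −0.71, and within animals they were 0.01, −0.01 and −0.12.

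Glul, glutamine synthetase, was low in both limbs of the recovery animals. Recovery limbs held 368, 338 and 721 CPM, own right limbs 640, 746 and 590 CPM, and the other 6 right limbs 1306 to 3095 CPM. The recovery limbs thus overlapped their own right limbs while both lay below the other 6. The change was −1.73 ± 0.47 (SE; limma adjusted p = 0.033) against all 9 limbs, −1.77 between right limbs (limma adjusted p = 0.014) and −0.55 within animals (limma adjusted p = 0.29). Sham animal 377 held 607 and 586 CPM in its left and right limb, compared with 2655 to 4858 CPM in the other sham limbs. Time point and animal cannot be told apart from recovery for this gene.

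Lists with many calls in atrophy limbs had few after recovery. Of 84 cytosolic ribosomal protein genes 2 were higher, Rpl41 (1.03) and Rps24 (1.16), compared with 76 after atrophy without the block. Of 47 proteasome genes 1 was lower, Psmb6 (−0.92), compared with 26 higher after atrophy. The medians of the ribosomal and proteasome lists were 0.10 and −0.12 against all 9 control limbs, −0.46 and −0.41 between right limbs, and 0.35 and 0.14 within animals, where 52 of the 84 ribosomal genes were higher in all 3 animals, beside 29.8% of all rows. Of 25 genes of folding and secretion in the endoplasmic reticulum, through which collagen passes, 2 were higher, the retrieval receptor Kdelr3 (1.30) and the coat protein Sec24d (0.93), and 1 was lower, the unfolded protein response factor Xbp1 (−0.95), which was higher than control in both disuse groups (0.65 and 0.52). Of 11 endothelial markers 0 were higher and 2 lower, Cldn5 (−0.9955) and Esam (−0.50), while Pecam1 (−0.29) and Cdh5 (−0.54) did not pass the test. The endothelial list summed to 280 to 286 CPM in recovery and 308 to 405 CPM in control limbs.

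**Figure D5:**
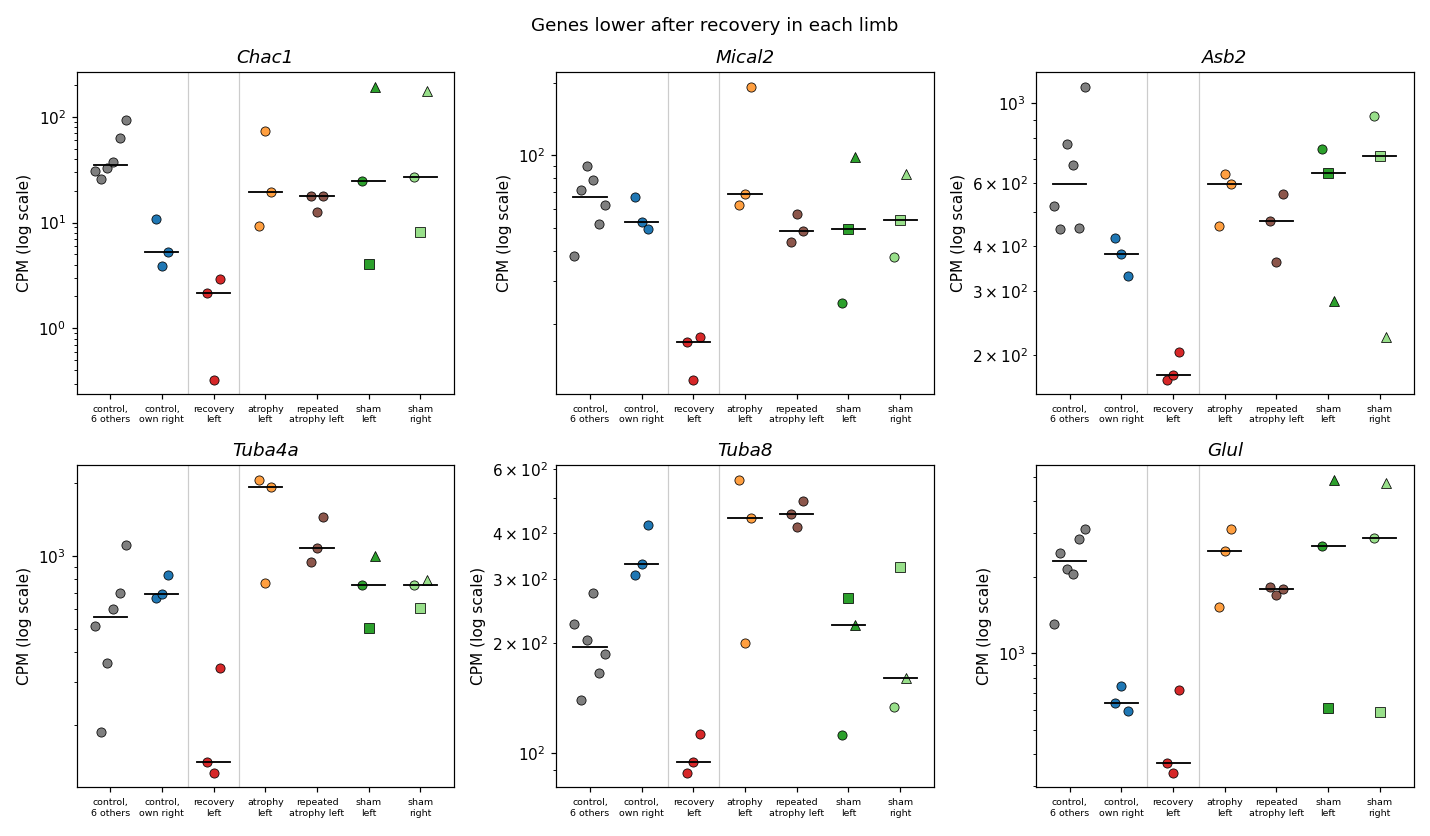
CPM on a log axis for 6 genes lower after recovery, 1 point per limb, grouped as in the plot of matrix genes with bars at the medians. Mical2 and Tuba8 recovery limbs lie below all 9 right limbs, whereas for Glul the own right limbs, at 590 to 746 CPM, lie with the recovery limbs and below the other 6.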

How the data were processed

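RNA was extracted from the tibialis anterior, and directional poly(A) libraries were prepared from 24 limbs. According to the study's methods, contaminant reads were removed with Bowtie2 2.2.5 and the rest aligned to rn7 with STAR in Partek Flow; the submitters' notes also name DESeq2. The deposited values are CPM, made by the authors from their read counts, as every column sums to 1000000. The study's methods name a median of ratios instead, so the unit was settled from the values. A further 3 value columns matched no listed sample and were not used. Of 14271 rows, 28 exact duplicates were removed.

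Values were tested as log2(CPM + 1) with limma 3.58.1 (R 4.3.3, trend), with control, atrophy, recovery and repeated atrophy limbs (18 samples) in 1 fit. Rows above 0 in at least 3 samples entered (14031 rows, 13246 symbols), and the row with the highest mean stood for a symbol in lists. A fold change is on the log2(CPM + 1) scale and understates that of low genes. Calls needed a fold of 1.2 and a Benjamini-Hochberg adjusted p of 0.05. A count test was not used: of values worth up to 20 reads, 86.3% to 88.3% lay within 0.01 reads of a whole number. Those steps put depth, in units of 1000000 reads, at about 18.9 to 29.1 in control and 19.8 to 24.4 in recovery limbs, where 1 read is worth at most 0.053 CPM. Precision is otherwise set by 3 recovery limbs. Right and left limbs with the same number come from the same animal, so animal was also fitted as a block. The correlation of left and right deviations from their group means was 0.14, 0.06 and −0.33 in the recovery animals and −0.33 to 0.53 in all 9.

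Genes named were the 12 largest rises and 12 largest falls among calls without overlap between groups and with a mean of at least 10 CPM in 1 group, the same among recovery-specific genes, those called with and without the block, up to 6 called members of each list described with any member at its ends, and Myh2, Myl1, Myl4, Myh3 and Myh8. The row with the highest mean stood for a symbol. Lack of overlap was thus a condition of naming for the largest changes and is no separate result for them. Further list members, called or not, and the defining markers of a cell type were named outside this rule, after their values were seen. Gatm, Gamt, Alas1, Acta1 and Wnt16 were added after their values were seen. The comparison and the gene lists were chosen with earlier results of these data known. Upstream sequences are from RefSeq (GRCr8), and Python 3.11.15 with matplotlib 3.10.9 drew the plots. Scaling, pseudocount, filters, control limbs, block, thresholds and left-out limbs were varied. The fit was also run on simulated limbs with known changes, and the outcome is not given here.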

Additional observations from a re-analysis of the deposited data

Results flagged for a closer look

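Of 142 named genes, 9 had a control limb far from the other 8. The usual chance share of about 1 in 20 assumes independent values. Most of the 9 fell in the same limb, so their number cannot be compared with that share. The right limb of animal 372 was the highest for Ankrd23 (4366 CPM, next 3178), Arrdc2 (192 CPM, next 90.5), Ddrgk1 (156 CPM, next 104), Dusp26 (558 CPM, next 312), Fdft1 (123 CPM, next 100.3) and Ulk1 (95.2 CPM, next 57.2), all of them genes lower after recovery. The others were Cd3g in animal 366 (0.624 CPM, next 0.260), Col11a1 in animal 370 (2.40 CPM, next 0.899) and Lum in animal 369 (31.9 CPM, next 18.6). Without the right limb of animal 372 the count of genes differing was 899.

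For 4 named genes the left-right difference itself differed between groups of animals in the fit with animal as a block (limma, fold of 1.2 and adjusted p of 0.05). On the log2 scale, Mical2 differed by −2.73 between recovery and atrophy animals. Tuba8 differed by −2.76 from atrophy and by −3.01 from repeated atrophy animals, and Tuba4a by −3.71 from repeated atrophy animals. Atp1b4 differed by 3.63 from repeated atrophy animals.

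Sham limbs entered no comparison except the alternative with all 12 right limbs as control. Of the 86 named genes that were higher after recovery, the left limb of sham animal 377, from the recovery time point, lay above all 9 control limbs for 54 (62.8%), beside 11.3% of all tested rows. Its right limb did so for 1 (1.16%, all rows 4.40%). The left limbs of sham animals 354 and 379 did so for 28 (32.6%, all rows 24.8%) and 17 (19.8%, all rows 28.1%). Of the 52 named lower genes, the left limb of animal 377 lay below all control limbs for 6 (11.5%, all rows 2.84%). Actc1 was at 156 CPM in the left and 11.4 CPM in the right limb of animal 377, and Myh8 at 66.6 and 7.30 CPM.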

How the results depend on the processing

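Of the 142 named genes followed here, only Acta1 and Wnt16 changed direction under any of the 34 alternatives, neither of them called. List members outside these 142 were not followed. The counts moved as follows, in the order differing (1084), higher only after recovery (424), lower only after recovery (352), and recovery-specific higher (151) and lower (231). Only counts that moved by over 1.5 times are given, besides those with the animal as a random effect. Left and right limbs of 1 animal are paired, and with the animal as a replicate block with fixed effects the counts were 9, 2, 1, 0 and 1, and 71, 32, 13, 0 and 1 with the block after TMM rescaling; at an unadjusted limma p below 0.05 the blocked fit had 2521 rows. With the animal as a random effect they were 1174, 444, 367, 138 and 225. With the own right limbs alone they were 49, 18, 9, 14 and 7. With the 6 other right limbs 581 were lower only after recovery and 415 recovery-specific lower, and after TMM rescaling of that choice, added after seeing the data, 1911 differed, 767 and 755 did so only after recovery and 339 were recovery-specific higher. Rescaling alone gave 1692, 674, 559 and 275 by TMM and 1698, 700, 535 and 290 by median of ratios, and quantile normalization gave 1684 differing, 568 lower only after recovery and 252 recovery-specific higher. The test against a fold of 1.2 (treat) gave 152, 84, 43, 31 and 18. A mean of at least 10 CPM gave 178 higher only after recovery and 87 recovery-specific higher, and a pseudocount of 0.1 gave 97 of the latter. Lower calls made up 43.1% of all, 59.1% with a mean of at least 10 CPM, 52.8% with the 6 other right limbs and 28.6% with the own right limbs.

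Leaving out 1 limb at a time gave 207 to 1219 differing, 101 to 444 and 45 to 472 only after recovery, and 55 to 160 and 30 to 322 recovery-specific, the lowest without the left limb of animal 369 (for recovery-specific lower genes also without that of 370). The 97 genes that differed between right limbs were 18 without animal 369, 3 without 370 and 2 without 371. Uncalled genes changed sign: Acta1 was −0.37 within animals or with own right limbs, −0.50 with block and TMM, −0.035 without control limb 367 and −0.0084 without 372 (−0.035 to 0.15 over left-out limbs), and Wnt16 was 0.069 with the 6 other right limbs and 0.058 after their rescaling. The cause was not tested. With 3 recovery limbs, small changes are not detectable.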
